A study of Homo sapiens with 12 samples.

Results

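FKBP5, a co-chaperone that is both a target and a brake of the glucocorticoid receptor, was followed with the receptor gene NR3C1 and 8 genes grouped with it as receptor targets: TSC22D3, DUSP1, MAOA, KLF9, GLUL, CEBPD, ANKRD35 and SERPINE2. These 10 genes were taken by symbol from a table of 58735 genes, and all 10 were among the 17468 genes with enough counts to be tested. They were selected on their expression differences between these same libraries as well as by name, so their levels and differences are given below as a description, without p-values. In hepatic co-culture FKBP5 was 6.56-fold and ANKRD35 7.23-fold lower than in monoculture, TSC22D3, DUSP1 and MAOA were 1.98-fold to 2.45-fold lower, and the NR3C1 ranges overlapped. In cardiac co-culture the log2 differences of these 6 genes from monoculture lay between -0.29 and 0.26. The 10 genes did not move as one group, since SERPINE2 was higher in hepatic co-culture.

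The glucocorticoid receptor is a hormone-activated transcription factor. Without hormone it waits in the cytosol, bound to HSP90, HSP70 and co-chaperones. Cortisol binding lets it enter the nucleus, where it raises some genes by binding a palindromic DNA element and lowers others, many of them inflammatory, largely through other factors. FKBP5 is among the most sensitive of the raised genes. Its protein lowers the hormone affinity of the receptor, which closes a short negative feedback loop, while the related protein FKBP4 favours nuclear entry.

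The cells were GFP-carrying MDA-MB-231, a mesenchymal-like human breast cancer line that lacks the oestrogen and progesterone receptors and expresses the glucocorticoid receptor. They were embedded in fibrin gel in the middle well of a perfused culture plate (AngioPlate), and RNA of that cancer tissue was taken on day 5 after seeding. In the monoculture group the cancer tissue stood alone. In the hepatic co-culture group the device also held tissue of HepG2, a line from a childhood liver tumour, with 2% lung fibroblasts, and in the cardiac co-culture group it held cardiomyocytes derived from pluripotent stem cells (iPSC) and 2% cardiac fibroblasts. Each group had 4 libraries, named biological replicates without a statement of whether each was its own culture. The spread that enters a p-value is thus that of libraries and may be technical. Whether the culture medium held a glucocorticoid is not given in the sources used here.

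Library totals ran from 26227140 to 42430001 counts. Cardiac replicate 4 stood apart from its group: on the first principal component (28.5% of variance) it lay at -24.9, inside the monoculture range of -51.1 to -22.3, while the other cardiac libraries lay from 6.79 to 16.3 and the hepatic ones from 24.5 to 46.8. The counts of calls that it moved most are therefore also given without it. Markers of the cancer line (VIM, CD44, EGFR, CAV1, AXL and KRT18) summed to 2604 to 2814 CPM (counts scaled to library size with TMM factors, per 1e+06) in monoculture, 2717 to 2960 in hepatic and 2502 to 2678 in cardiac co-culture. Single markers moved within these sums. From monoculture to hepatic co-culture VIM went from 728 ± 106 to 1098 ± 118 CPM and CAV1 from 699 ± 38.2 to 513 ± 49.5. Of the partner tissues, 10 hepatocyte markers summed to 41.9 to 74.5 CPM in monoculture, 34.9 to 58.5 in hepatic and 69.7 to 95.7 in cardiac co-culture. Most of this was SERPINA1 (group means 57.4, 46.5 and 82.0 CPM), whereas APOB had 0 counts in monoculture and in hepatic co-culture. The other hepatocyte markers had few counts. AFP had 11, 1, 1 and 0 in monoculture and 0, 13, 14 and 6 in hepatic co-culture. TF had 0, 5, 2 and 8, then 10, 10, 12 and 4. Mean CPM of AFP, TF, APOA1, FGB, APOH, TTR and AHSG was higher in hepatic co-culture than in monoculture. That of ALB was lower, as was that of SERPINA1. The 10 cardiomyocyte markers summed to 2.08 to 3.00 CPM in monoculture, 0.706 to 1.76 in hepatic and 1.28 to 4.37 in cardiac co-culture. MYH6 was at 0 counts in every library but cardiac replicate 4, which had 21. Among 10 fibroblast markers, summing to 9.91 to 16.7, 11.7 to 23.9 and 12.3 to 13.2 CPM, POSTN and THY1 were at 0 counts throughout. In bulk RNA, fewer cells expressing a gene and less of its RNA per cell cannot be told apart.

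Since receptor targets were read out through their transcripts, the DNA just before their start sites is shown for FKBP5, DUSP1 and MAOA, 3 of the genes that were lower in hepatic co-culture. RefSeq (GRCh38.p14) held windows for 8 of the 10 genes, 20 windows in all, each read here over the 250 bases before a start site. The windows below are on the coding strand, 5′ to 3′, and capitals mark GC boxes (GGGCGG or its complement CCGCCC), which bind SP1-type factors, the cyclic AMP response element TGACGTCA and the TATA element TATAAA. The first FKBP5 window precedes the distal start (chr6:35728584-35728833, minus strand), and the next precedes the proximal start inside the gene (chr6:35688916-35689165, minus strand). The DUSP1 window is chr5:172771196-172771445 (minus strand) and the MAOA window chrX:43656049-43656298 (plus strand).
FKBP5 distal: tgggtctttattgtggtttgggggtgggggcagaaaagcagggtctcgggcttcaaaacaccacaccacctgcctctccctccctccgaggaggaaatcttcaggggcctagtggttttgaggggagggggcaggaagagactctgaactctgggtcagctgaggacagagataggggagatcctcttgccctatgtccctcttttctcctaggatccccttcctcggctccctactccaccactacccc
FKBP5 proximal: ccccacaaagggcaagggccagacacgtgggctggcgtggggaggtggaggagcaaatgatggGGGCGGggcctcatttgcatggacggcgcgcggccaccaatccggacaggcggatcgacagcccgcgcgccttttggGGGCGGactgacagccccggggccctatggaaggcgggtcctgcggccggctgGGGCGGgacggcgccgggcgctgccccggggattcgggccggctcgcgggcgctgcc
DUSP1: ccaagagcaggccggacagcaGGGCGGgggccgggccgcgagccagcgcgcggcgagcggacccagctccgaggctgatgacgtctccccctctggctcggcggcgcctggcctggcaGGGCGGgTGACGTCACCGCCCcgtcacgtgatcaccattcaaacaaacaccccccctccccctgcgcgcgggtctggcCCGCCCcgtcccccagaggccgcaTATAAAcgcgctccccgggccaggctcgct
MAOA: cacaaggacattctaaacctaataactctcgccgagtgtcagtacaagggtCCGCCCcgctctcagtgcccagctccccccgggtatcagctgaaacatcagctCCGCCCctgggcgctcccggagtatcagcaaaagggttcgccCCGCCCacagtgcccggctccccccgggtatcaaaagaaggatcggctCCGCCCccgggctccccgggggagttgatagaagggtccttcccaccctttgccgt

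The 2 FKBP5 starts differ in composition: the distal window held 0 GC boxes at 57.6% G and C, and the proximal one held 3 at 74.8%. MAOA carried 4 GC boxes (63.2% G and C), and DUSP1 carried 4 with 1 cyclic AMP element and 1 TATA element 30 bases before the start (74.4% G and C). Searched on both strands, GGGCGG occurred in 15 of the 20 windows, against 42.6% of all 35116 windows of this length. By gene it was in 7 of the 8, against 46.2% of all 27305 genes with a window. TGACGTCA was found in 1 of the 20 windows, that of DUSP1, against 1.65% of all windows. TATAAA stood in 3 of the 20 windows, those of DUSP1, NR3C1 and TSC22D3, against 10.7% of all. The full receptor element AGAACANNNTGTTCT was in 0 of the 20 windows and 0.00285% of all, its looser form GNACANNNTGTNC in 0 and 0.327%, and the single arm AGAACA, which the full form contains, in 0 and 12.4%. A match is only a run of letters, and its absence says only that these letters are not in this window. The receptor elements known to drive FKBP5 lie in its introns, outside the windows read here.

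FKBP5 (chr6:35573585-35728583 on GRCh38, minus strand, per GENCODE release 29) was at 263, 262, 346 and 331 CPM in monoculture replicates 1 to 4. In hepatic co-culture it was at 39.2, 54.6, 41.1 and 47.9 CPM, and in cardiac co-culture at 241, 227, 225 and 288 CPM. All hepatic libraries lay far below every other library, while the monoculture and cardiac ranges overlapped. Means were 300.4 ± 44.2, 45.7 ± 7.02 and 245 ± 29.2 CPM (SD, n = 4), which made FKBP5 6.56-fold lower in hepatic co-culture than in monoculture (log2 fold change -2.71 ± 0.13, SE of the fit). Against monoculture the cardiac difference was -0.29 ± 0.12, and -0.38 without cardiac replicate 4, its highest cardiac library. Between the co-cultures FKBP5 was 5.36-fold higher in the cardiac libraries (log2 2.42 ± 0.13, and 2.34 without that library). The hepatic values rested on 1111 to 2312 reads per library.

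ANKRD35 (chr1:145866560-145885866, minus strand), an ankyrin repeat protein of little known function, had the same shape at a lower level. It was at 8.88, 7.35, 8.33 and 9.08 CPM in monoculture, at 1.31, 1.06, 0.993 and 1.30 CPM in hepatic and at 8.43, 6.50, 6.68 and 7.26 CPM in cardiac co-culture. The hepatic libraries again fell outside both other ranges, with as few as 29 reads. Its mean was 7.23-fold lower in hepatic co-culture than in monoculture (log2 -2.85 ± 0.17), with a cardiac difference of -0.22 ± 0.15.

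**Figure D1:**
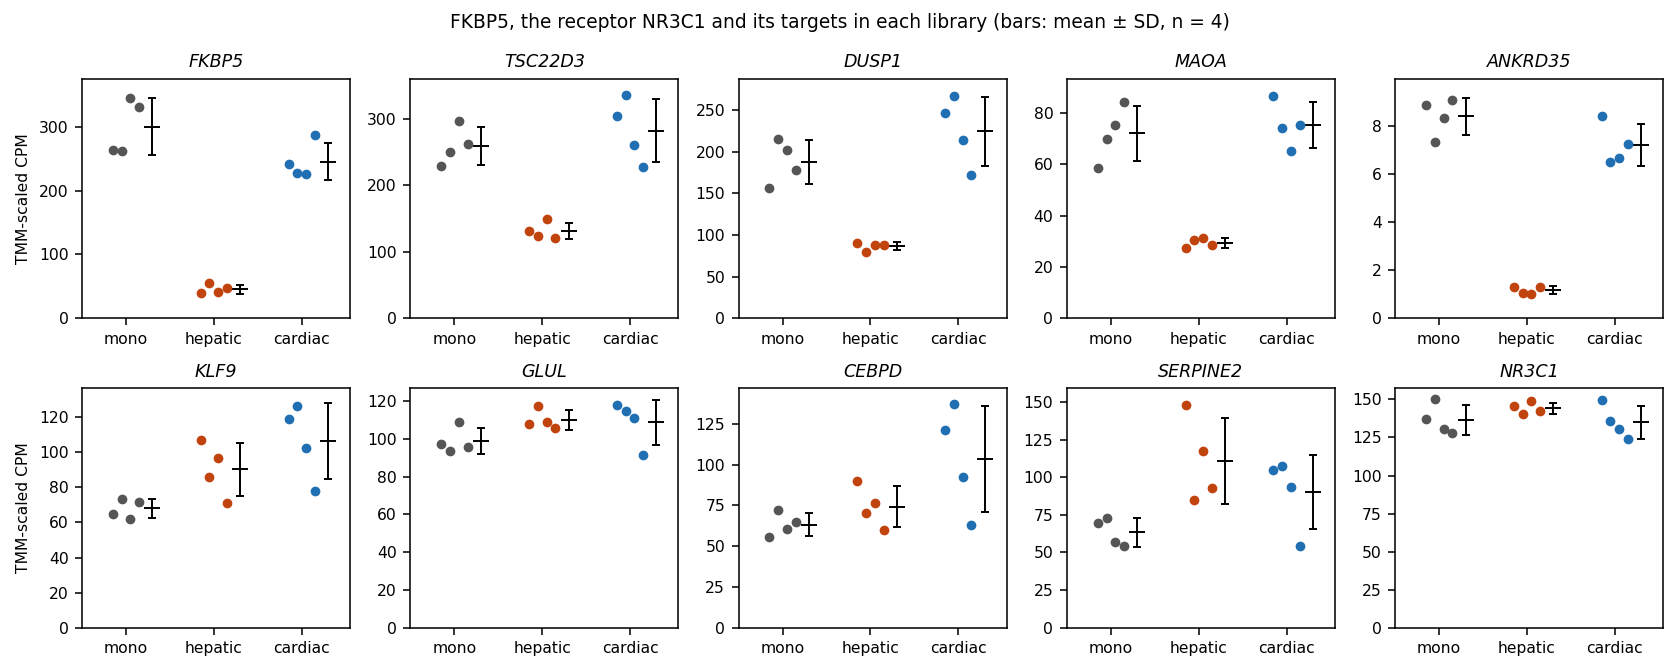
TMM-scaled CPM of the 10 genes in each of the 12 libraries (points, replicates 1 to 4 from left to right) with the group mean ± SD (n = 4), on axes that start at 0. The 4 hepatic points of FKBP5, TSC22D3, DUSP1, MAOA and ANKRD35 lie below all other points of the gene, whereas NR3C1 spans 124 to 150.0 CPM over all groups.

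The known receptor targets TSC22D3, DUSP1 and MAOA had smaller hepatic differences than FKBP5 and ANKRD35. TSC22D3 (chrX:107713221-107777342, minus strand) encodes GILZ, a leucine zipper protein that mediates part of the anti-inflammatory response to glucocorticoids. It was at 229, 249.9, 297 and 262 CPM in monoculture, 131, 124, 149 and 121 CPM in hepatic and 304, 336, 261 and 228 CPM in cardiac co-culture. The hepatic range lay below both others, which overlapped (hepatic against monoculture, log2 -0.98 ± 0.11, or 1.98-fold lower). Of its exons, 71 bases are shared with NCBP2L on the other strand, a gene with 0 counts in every library.

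DUSP1 (chr5:172768090-172771195, minus strand), a phosphatase that switches off p38 and JNK kinases, was at 156, 215, 202 and 178 CPM in monoculture. Hepatic libraries had 90.7, 80.1, 88.5 and 88.1 CPM and cardiac ones 246, 267, 214 and 172 CPM. It was thus 2.16-fold lower in hepatic co-culture than in monoculture with no overlap (log2 -1.11 ± 0.12), and its cardiac difference was 0.26 ± 0.12, or 0.37 without cardiac replicate 4. The antisense gene AC022217.3 at this locus shares 0 exon bases with it and had 0 to 19 counts.

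MAOA (chrX:43654907-43746824, plus strand), the mitochondrial enzyme that breaks down serotonin and noradrenaline, was at 58.6, 70.0, 75.2 and 84.4 CPM in monoculture. It was at 27.2, 30.4, 31.4 and 28.4 CPM in hepatic and at 86.7, 74.0, 65.2 and 75.4 CPM in cardiac co-culture. Every hepatic library lay below all others, by 2.45-fold in the mean (log2 -1.30 ± 0.10), and the cardiac difference of 0.06 ± 0.10 changed sign to -0.03 without monoculture replicate 1.

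KLF9, GLUL and CEBPD, also known receptor targets, did not share this shape. KLF9 (chr9:70384597-70414624, minus strand), a zinc finger repressor, was at 64.9, 73.7, 62.2 and 71.6 CPM in monoculture. It had 107, 86.1, 96.7 and 71.3 CPM in hepatic and 119, 126, 103 and 78.0 CPM in cardiac co-culture. All cardiac libraries lay above monoculture, and the hepatic ones overlapped it through replicate 4 (log2 0.65 ± 0.15 and 0.41 ± 0.15). Without cardiac replicate 4 the cardiac difference was 0.77.

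GLUL (chr1:182381704-182392206, minus strand) makes glutamine from glutamate and ammonia. Its levels were 97.3, 93.3, 109 and 95.8 CPM in monoculture, 108, 118, 109 and 106 CPM in hepatic and 118, 115, 111 and 91.6 CPM in cardiac co-culture. The 3 ranges overlapped, with differences from monoculture of 0.16 ± 0.08 and 0.14 ± 0.08 on the log2 scale, the latter 0.21 without cardiac replicate 4. Its 4 annotated pseudogenes had at most 2 counts in a library.

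CEBPD (chr8:47736909-47739086, minus strand), a transcription factor of inflammation and differentiation, was at 55.6, 72.3, 60.2 and 64.6 CPM in monoculture. It reached 90.0, 70.4, 76.2 and 59.9 CPM in hepatic and 122, 137, 92.3 and 63.2 CPM in cardiac co-culture. Cardiac replicates 1 to 3 lay above every monoculture library and replicate 4 among them. The cardiac difference was 0.71 ± 0.22, and 0.89 without that library, against 0.23 ± 0.22 in hepatic co-culture.

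SERPINE2 (chr2:223975112-224039319, minus strand), a secreted inhibitor of thrombin and plasminogen activators, was at 69.6, 73.1, 56.7 and 54.0 CPM in monoculture. It was at 148, 84.9, 118 and 92.5 CPM in hepatic and at 105, 107, 93.7 and 54.2 CPM in cardiac co-culture. The hepatic libraries all lay above monoculture (log2 0.81 ± 0.24), opposite in direction to FKBP5. In cardiac co-culture 3 of the 4 did (0.51 ± 0.24, or 0.69 without replicate 4).

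NR3C1 (chr5:143277931-143435512, minus strand), the receptor gene, was at 137, 150.0, 130.4 and 128 CPM in monoculture. Hepatic libraries had 146, 141, 149 and 142 CPM and cardiac ones 149.6, 136, 131 and 124 CPM. The ranges overlapped in all comparisons, with log2 differences of 0.08 ± 0.07 (hepatic), -0.01 ± 0.07 (cardiac) and -0.10 ± 0.07 (cardiac against hepatic). Single-library omissions turned the sign of the cardiac value, which reached 0.03 without monoculture replicate 2. These values are of messenger RNA alone and do not cover receptor protein or its location.

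**Figure D2:**
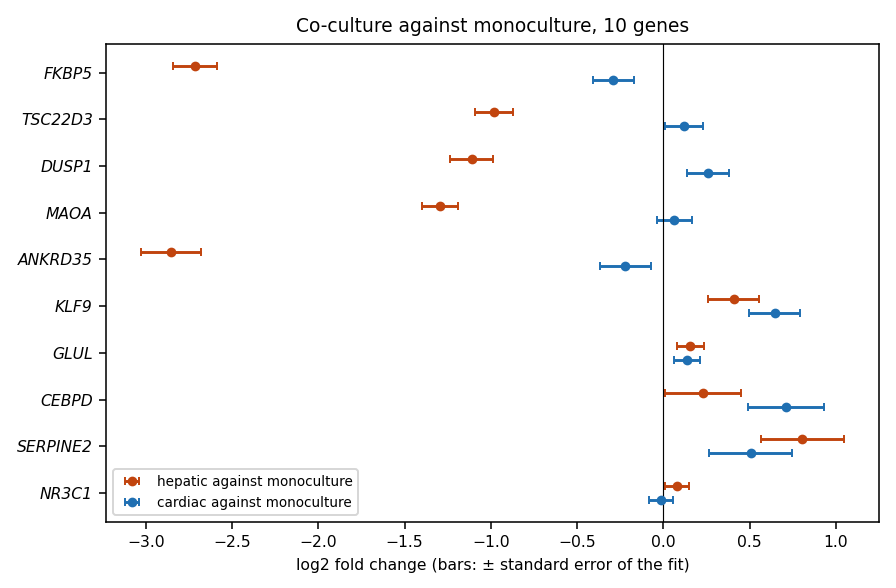
Log2 fold change of each of the 10 genes in hepatic (orange) and cardiac co-culture (blue) against the same 4 monoculture libraries, with the standard error of the fit as bars. FKBP5 at -2.71 and ANKRD35 at -2.85 stand lowest in hepatic co-culture, SERPINE2 at 0.81 highest, and cardiac values run from -0.29 to 0.71.

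Over all tested genes, 28.0% passed edgeR's test (adjusted p under 0.05) in hepatic co-culture against monoculture, 14.4% higher and 13.6% lower. Of the 10 genes, 5 passed as lower and 1, SERPINE2, as higher. The same 6 had ranges that did not overlap, against 30.5% of tested genes (15.1% above and 15.4% below). The 5 lower ones were called in every fit that left out 1 library, whereas SERPINE2 was not called without monoculture replicate 1, 3 or 4, without hepatic replicate 1 or 3 or with no low-count filter. KLF9 was called as higher there by DESeq2, with no low-count filter and without hepatic replicate 4 or cardiac replicate 2 or 4. In cardiac co-culture against monoculture 8.26% of tested genes passed (4.93% higher and 3.33% lower), and 1 of the 10 genes did, KLF9 as higher. KLF9 was also the only one without overlap, against 15.2% of tested genes (7.77% above and 7.47% below). Without cardiac replicate 4 the background was 19.1%, and 5 of the 10 passed as higher (CEBPD, DUSP1, GLUL, KLF9 and SERPINE2) and 1, FKBP5, as lower. Without monoculture replicate 1, 3 or 4 or cardiac replicate 1, 2 or 3 none of the 10 passed. With no low-count filter DUSP1 also passed as higher and FKBP5 as lower, and DESeq2 added CEBPD as higher. Cardiac replicate 4 was the lowest cardiac library for 7 of the 10 genes and the highest for FKBP5. Between the co-cultures 6.18% of tested genes passed (3.27% higher and 2.91% lower in cardiac), and 5 of the 10 were higher in the cardiac libraries, FKBP5, TSC22D3, DUSP1, MAOA and ANKRD35. These 5 also did not overlap, against 11.9% of tested genes (6% above and 5.92% below). CEBPD joined them without cardiac replicate 4. The 2 comparisons with monoculture share its 4 libraries. Because the list was chosen with these comparisons known, nothing is read from these counts.

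Levels can be set side by side between genes only per length, here as CPM per kilobase of annotated exon. In monoculture the order was DUSP1 (92.9 ± 12.9), TSC22D3 (54.4 ± 6.01), CEBPD (29.0 ± 3.27), FKBP5 (28.3 ± 4.16), NR3C1 (14.9 ± 1.08), KLF9 (13.2 ± 1.05), MAOA (13.0 ± 1.94), GLUL (10.9 ± 0.764), SERPINE2 (7.12 ± 1.06) and ANKRD35 (2.50 ± 0.230), as mean ± SD over 4 libraries. CEBPD and FKBP5 did not differ beyond their spread, nor did neighbours in the run from NR3C1 to GLUL. In hepatic co-culture FKBP5 (4.30 ± 0.661) stood ninth of the 10, next to MAOA (5.31 ± 0.343) with overlapping ranges, and above only ANKRD35 (0.347 ± 0.0480). CEBPD (34.0 ± 5.77) then overlapped DUSP1 (43.0 ± 2.29) and TSC22D3 (27.5 ± 2.60). In cardiac co-culture the first 4 places were those of monoculture, with FKBP5 at 23.1 ± 2.75.

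By Pearson correlation of log CPM over the 12 libraries, which fall into 3 groups and so mainly repeat the group pattern, 11623 protein-coding genes were ranked against FKBP5. The closest were CCND3 (r = 0.99), a cyclin of the G1 phase, PDZD2 (0.99), a PDZ domain protein, DSEL (0.99), an enzyme-like protein of dermatan sulfate synthesis, ANKRD35 (0.99) and HLA-DMB (0.98), which helps load peptides onto class II molecules. Within groups, as deviations from the group means, the same correlations were 0.90, 0.59, 0.31, 0.13 and 0.72. CCND3 was at 426 ± 28.7 CPM in monoculture, 220 ± 14.5 in hepatic and 381 ± 27.2 in cardiac co-culture (SD, n = 4). At the other end stood ENPP1 (-0.99), an enzyme that makes pyrophosphate, SLC4A7 (-0.98), a bicarbonate transporter, HMGA1 (-0.98), a chromatin protein, RASA1 (-0.97), which turns off RAS, and ENPP3 (-0.97). ENPP1 was at 84.0 ± 11.8, 204 ± 25.8 and 85.7 ± 6.28 CPM in the same order. Of the other listed genes MAOA ranked 15th (0.97), TSC22D3 116th (0.92) and DUSP1 194th (0.90). KLF9 (-0.24), GLUL (-0.38), CEBPD (0.01), NR3C1 (-0.54) and SERPINE2 (-0.69) did not follow FKBP5. Within groups the correlation was 0.50 for MAOA but -0.17 for TSC22D3 and -0.38 for DUSP1, which thus shared only the group pattern. It was -0.62, -0.003, -0.53, -0.63 and -0.87 for KLF9, GLUL, CEBPD, NR3C1 and SERPINE2. The correlations are descriptive and carry no test.

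Beyond the 10 genes, a list of 36 other genes known to be induced by glucocorticoids was examined, of which 30 were expressed enough to be tested. It and the other pathway lists below were chosen with earlier results of these data known. Their counts and p-values in all 3 comparisons are thus a description and not independent evidence. In hepatic co-culture against monoculture 13 of the 30 fell and 2 rose, where 28.0% of all tested genes passed, 13.6% lower and 14.4% higher. The median log2 fold change was -0.28, against 0.015 for all tested genes. ANGPTL4 and SCNN1A were named after their values were seen. ANGPTL4, a secreted inhibitor of lipoprotein lipase, fell 4.61-fold (log2 -2.21 ± 0.18, edgeR adjusted p = 1.21e-05), with 136, 184, 161 and 154 CPM in monoculture and 41.3, 38.9, 22.2 and 35.1 CPM in hepatic co-culture. PER1, a clock gene and rapid receptor target, fell from 58.9, 65.3, 74.4 and 68.6 to 36.3, 32.0, 33.3 and 32.5 CPM (1.99-fold lower, edgeR adjusted p = 3.02e-07). TFCP2L1, an epithelial transcription factor, fell from 10.7 ± 1.65 to 3.08 ± 0.428 CPM (log2 -1.79 ± 0.16, edgeR adjusted p = 5.97e-07). SCNN1A, the alpha subunit of the epithelial sodium channel, fell by 1.60 ± 0.17 on the log2 scale (edgeR adjusted p = 7.19e-05). None of these hepatic ranges overlapped monoculture, a separation downward that 15.4% of all tested genes showed.

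ZBTB16, a zinc finger protein (PLZF) whose induction depends strongly on the receptor, had 0 counts in all 4 hepatic libraries. In monoculture it had 18 to 45 counts (0.819 ± 0.282 CPM) and in cardiac co-culture 14 to 56 (1.15 ± 0.705 CPM). Taking 3 counts over the hepatic group as the limit that a count of 0 allows, it was at least 34.4-fold lower in hepatic co-culture than in monoculture and at least 48.1-fold lower than in cardiac co-culture, for counting error only. Its cardiac value against monoculture was 0.47 ± 0.48 (log2, edgeR adjusted p = 0.584).

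MT2A fell by 0.80 ± 0.08 on the log2 scale in hepatic co-culture. The other induced genes that fell were named after their values were seen. CRISPLD2 fell by 1.00 ± 0.25. The rest were KLF15 (log2 -1.46 ± 0.30), PDK4 (-0.92 ± 0.17), RHOB (-0.87 ± 0.09), NFKBIA (-0.62 ± 0.16), CAVIN2 (-0.41 ± 0.09) and FSTL3 (-0.36 ± 0.13). Among them PDK4 restrains pyruvate oxidation, MT2A binds zinc, and NFKBIA holds NF-kappaB in the cytosol. SGK1, a kinase that raises sodium uptake and is a textbook receptor target, rose instead: 10.3, 10.3, 9.69 and 10.1 CPM in monoculture became 20.3, 11.0, 17.9 and 15.8 CPM (log2 0.68 ± 0.20, edgeR adjusted p = 0.0205). ERRFI1, an inhibitor of the EGF receptor, also rose (0.33 ± 0.11, edgeR adjusted p = 0.0337). These 2 calls and that of FSTL3 depended on single libraries. SGK1 was lost without monoculture replicate 3 or 4 or hepatic replicate 1 or 3 (adjusted p up to 0.0687), and ERRFI1 without monoculture replicate 1, 3 or 4 or hepatic replicate 1, 2 or 3 (up to 0.106). FSTL3 was lost without monoculture replicate 2 or 3 or hepatic replicate 2, 3 or 4 and under upper-quartile scaling (up to 0.149948). DDIT4, an inhibitor of mTOR signalling, was at 199 ± 48.8 CPM in monoculture and 229 ± 49.0 in hepatic co-culture (log2 0.20 ± 0.22, edgeR adjusted p = 0.549).

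**Figure D3:**
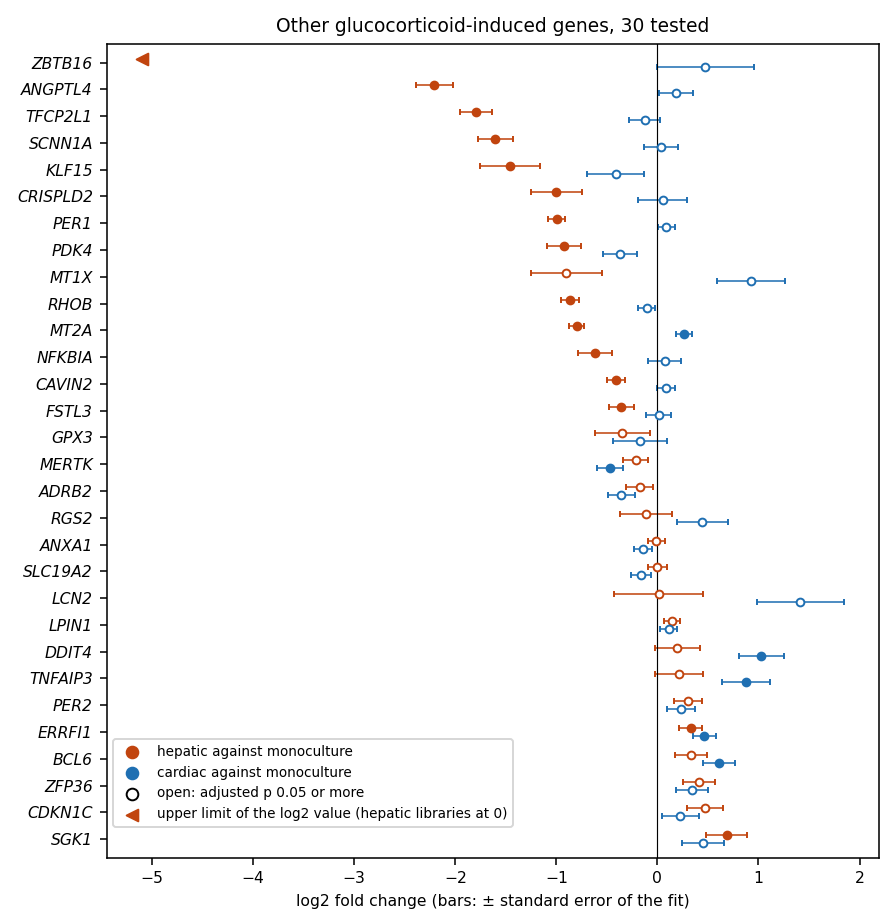
Log2 fold change against monoculture of the 30 tested induced genes in hepatic (orange) and cardiac co-culture (blue), with the standard error of the fit as bars and filled points for edgeR adjusted p under 0.05. In hepatic co-culture 13 filled points lie below 0 and 2 above it, and ZBTB16 is drawn as an arrowhead at its limit because its hepatic libraries hold 0 counts.

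In cardiac co-culture against monoculture 5 of the 30 induced genes rose and 1 fell, where 8.26% of all tested genes passed (4.93% higher and 3.33% lower). Their median was 0.10, against 0.0063 for all tested genes. DDIT4 rose from 206, 259.8, 141 and 190.0 to 449, 483, 405 and 291 CPM (log2 1.03 ± 0.22, edgeR adjusted p = 0.0251). TNFAIP3, a brake on NF-kappaB (0.88 ± 0.24, edgeR adjusted p = 0.0474), BCL6, a transcriptional repressor (0.61 ± 0.16, 0.0379), ERRFI1 (0.47 ± 0.11, 0.0191) and MT2A (0.26 ± 0.08, 0.0441) rose, and MERTK, a receptor for the uptake of dying cells, fell (-0.47 ± 0.13, 0.0314). All 6 calls were lost without monoculture replicate 3 or 4 or without cardiac replicate 1, 2 or 3, and 1 remained without monoculture replicate 1. Leaving out cardiac replicate 4 instead gave 9 that rose, SGK1 among them, and 2 that fell, with 19.1% of all tested genes passing. ANGPTL4 (0.19 ± 0.17), PER1 (0.09 ± 0.08), TFCP2L1 (-0.13 ± 0.15) and SCNN1A (0.03 ± 0.17), which fell in hepatic co-culture, had cardiac adjusted p of 0.541, 0.534, 0.644 and 0.933 in the same edgeR fit.

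In the direct comparison of the co-cultures, 12 of the 30 induced genes were higher in cardiac than in hepatic co-culture and 0 were lower, where 6.18% of all tested genes passed (3.27% higher and 2.91% lower). The median difference was 0.55 on the log2 scale, against -0.0034 for all tested genes. Differences were 2.39 ± 0.18 for ANGPTL4 (edgeR adjusted p = 1.39e-05), 1.67 ± 0.16 for TFCP2L1 (2.20e-06), 1.64 ± 0.17 for SCNN1A (1.54e-04), 1.08 ± 0.08 for PER1 (1.58e-07) and 1.07 ± 0.08 for MT2A (1.04e-07). For MT1X, whose reads may be shared with other metallothionein copies, the difference was 1.83 ± 0.35 (0.0142). Without cardiac replicate 4, 14 were higher and 0 lower, where 4.79% of all tested genes passed. SGK1 stood at 13.8 ± 4.26 CPM in cardiac and 16.2 ± 3.95 in hepatic co-culture (log2 -0.23 ± 0.20, edgeR adjusted p = 0.571).

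**Figure D4:**
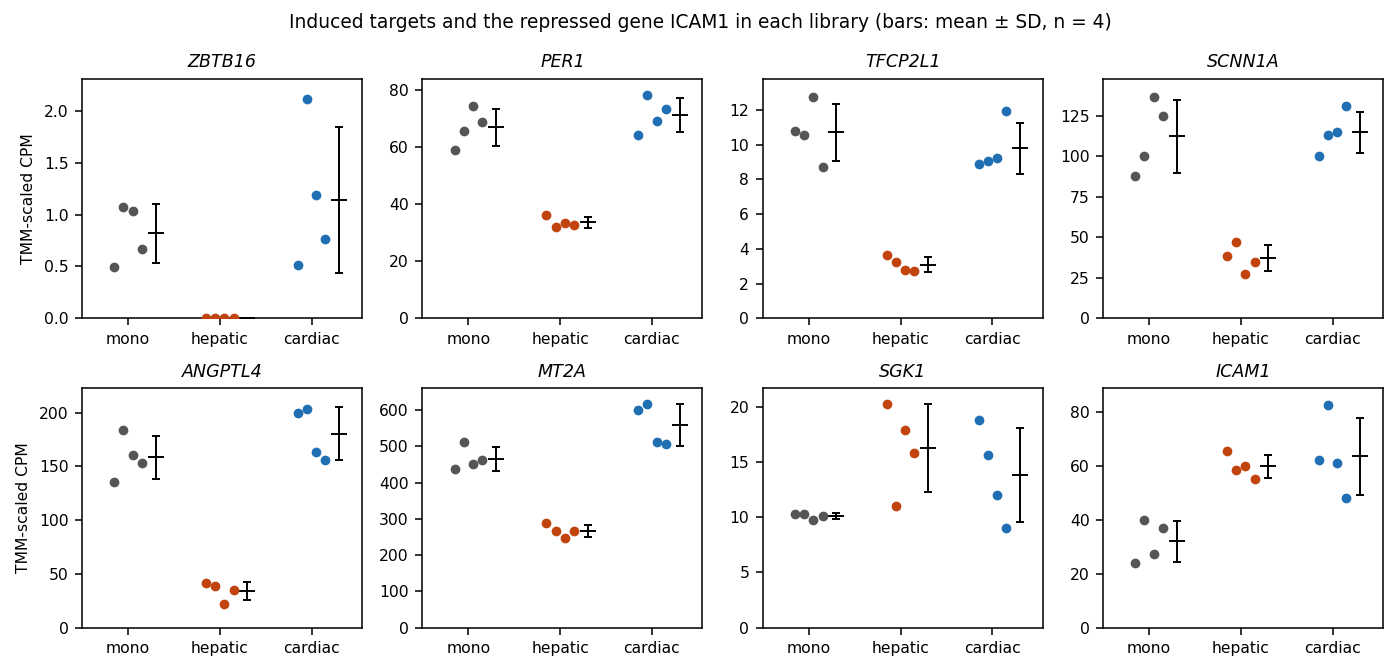
TMM-scaled CPM of 7 induced genes and of ICAM1, a gene that glucocorticoids repress, in each library (points) with the group mean ± SD (n = 4). The hepatic points of ZBTB16, PER1, TFCP2L1, SCNN1A, ANGPTL4 and MT2A lie below all other points, those of SGK1 do not, and ICAM1 is above monoculture in both co-cultures.

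Of 18 inflammatory and other genes that glucocorticoids are known to repress, 14 could be tested. In hepatic co-culture 6 of the 14 rose and 0 fell (median log2 0.61), where 28.0% of all tested genes passed and 14.4% rose. The 6 were ICAM1, IL1B, LIF, MMP13, NOS2 and PTGS2. ICAM1, an adhesion molecule, went from 24.0, 40.0, 27.2 and 36.9 CPM in monoculture to 65.6, 58.5, 59.9 and 55.1 CPM (log2 0.90 ± 0.18, edgeR adjusted p = 0.00298). IL1B, an inflammatory cytokine, rose by 1.31 ± 0.24 (edgeR adjusted p = 6.34e-04) and LIF, a cytokine of the IL-6 family, by 0.43 ± 0.10 (0.00334). PTGS2, the inducible cyclooxygenase, rose by 1.58 ± 0.46 (0.0303), and this call was lost under 7 of 17 alternatives, without monoculture replicate 1, 3 or 4, without hepatic replicate 1, 3 or 4 and with no low-count filter (adjusted p up to 0.0840). MMP13 and NOS2 rose from means under 1 CPM. In cardiac co-culture ICAM1 (0.98 ± 0.18, edgeR adjusted p = 0.0115) and IL1B (0.91 ± 0.24, 0.0285) rose and 0 fell, against 8.26% of all tested genes passing. The cardiac median was 0.95, no smaller than the hepatic one. In cardiac co-culture 9 of the 14 had an unadjusted edgeR p under 0.05, and in hepatic co-culture 6 did. Without cardiac replicate 4, 8 of the 14 rose, against 19.1% of all tested genes passing, and DESeq2 called 7 as higher over all libraries. ICAM1 alone was called without monoculture replicate 1, 2 or 3 or cardiac replicate 1, 2 or 3. The IL1B adjusted p then reached 0.108. Between the co-cultures 0 of 14 passed in edgeR, against 6.18% of all tested genes, 4 of 14 had an unadjusted p under 0.05, and DESeq2 called 1.

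Among the receptor's own partners, 14 chaperones and co-chaperones were all tested. In hepatic co-culture 8 of the 14 fell and 0 rose (median -0.26), where 13.6% of all tested genes fell. The groups did not overlap for any of the 8, and 15.4% of all tested genes lay fully below monoculture. HSPA8, the constitutive HSP70 that loads the receptor, fell from 2103, 1861, 1969 and 1939 to 1147, 1384, 1249 and 1469 CPM (log2 -0.58 ± 0.08, edgeR adjusted p = 8.02e-05). PPP5C, a phosphatase in receptor complexes, fell by 0.46 ± 0.08 (3.92e-04) and HSPA4, a nucleotide exchange factor of HSP70, by 0.41 ± 0.09 (0.00171). FKBP4, the close relative of FKBP5 with the opposite effect on the receptor, went from 137, 144, 154 and 156 to 104, 134, 113 and 129 CPM (-0.30 ± 0.09, edgeR adjusted p = 0.0147), a far smaller difference than that of FKBP5. The FKBP4 call was lost without monoculture replicate 4 or hepatic replicate 3 (up to 0.0536). Without monoculture replicate 4, 5 of the 14 fell, where 20.9% of all tested genes passed. In cardiac co-culture, where 8.26% of all tested genes passed (3.33% lower), HSPA8 and HSPA4 fell, by 0.34 ± 0.08 and 0.34 ± 0.09 (edgeR adjusted p = 0.0208 and 0.0227). Both were lost without monoculture replicate 3 or 4 or cardiac replicate 1, 2 or 3, and HSPA8 also without monoculture replicate 1. Without cardiac replicate 4, 6 fell and 1 rose, where 19.1% of all tested genes passed. Without hepatic replicate 1, 4 fell, where 11.2% of all tested genes passed. Between the co-cultures, where 6.18% of all tested genes passed, PPP5C was higher in the cardiac libraries (0.30 ± 0.08, edgeR adjusted p = 0.0300). The PPP5C call was lost without hepatic replicate 1, 3 or 4 or cardiac replicate 3 or 4. FKBP4 had a cardiac difference of -0.23 ± 0.09 (edgeR adjusted p = 0.103), and passed as lower without cardiac replicate 4. The median of the 14 was -0.20 in cardiac co-culture against monoculture and 0.077 between the co-cultures. In cardiac co-culture 7 of the 14 had an unadjusted edgeR p under 0.05, and in hepatic co-culture 8 did.

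Of 12 coactivators and corepressors, 4 fell and 1 rose in hepatic co-culture, where 28.0% of all tested genes passed, 13.6% lower and 14.4% higher. NCOA3, a steroid receptor coactivator, fell from 112 ± 7.59 to 72.9 ± 3.36 CPM (log2 -0.62 ± 0.07, edgeR adjusted p = 1.17e-05). NCOR1, a corepressor, fell by 0.34 ± 0.06 (8.84e-04), MED1, the Mediator subunit that contacts nuclear receptors, by 0.35 ± 0.07 (0.00119) and CREBBP, a histone acetyltransferase, by 0.29 ± 0.09 (0.0186). CREBBP was lost without hepatic replicate 2 or 4 (up to 0.0679). The gene that rose was CARM1, an arginine methyltransferase (0.20 on the log2 scale), and it was called no longer without any 1 of the monoculture libraries, hepatic replicate 1, 2 or 3, or cardiac replicate 3. In cardiac co-culture 0 of 12 passed in edgeR, against 8.26% of all tested genes, 1 had an unadjusted p under 0.05, and DESeq2 called 1. All 4 that fell were higher in cardiac than in hepatic co-culture, where 6.18% of all tested genes passed (3.27% higher). NCOA3 was at 0.52 ± 0.07 (edgeR adjusted p = 1.42e-04). Of these calls only that of NCOA3 was kept without cardiac replicate 3 or 4 or hepatic replicate 2 or 3.

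Receptors that share the DNA element, and the enzymes that convert the hormone, were also examined. PGR, the progesterone receptor, was near 0, at no more than 0.113 CPM in any library, and was not tested. NR3C2, the mineralocorticoid receptor, which also binds cortisol, was at 4.43, 6.28, 5.17 and 5.39 CPM in monoculture and at 8.40, 8.86, 8.67 and 6.39 CPM in hepatic co-culture (log2 0.61 ± 0.22, edgeR adjusted p = 0.0462). That call was lost without monoculture replicate 1, 3 or 4, hepatic replicate 1, 2 or 3, or cardiac replicate 1 or 3 (up to 0.127). In cardiac co-culture it was at 6.65 ± 2.31 CPM (0.32 ± 0.22, edgeR adjusted p = 0.392), and it passed as higher without cardiac replicate 4. HSD11B1, which makes cortisol from cortisone, was at 0.328 ± 0.139, 0.212 ± 0.209 and 0.538 ± 0.0614 CPM in monoculture, hepatic and cardiac co-culture. HSD11B2, which inactivates cortisol, was at 0.693 ± 0.337, 0.423 ± 0.158 and 0.979 ± 0.291 CPM. Their hepatic differences from monoculture did not pass (edgeR adjusted p = 0.570 and 0.260), nor did the cardiac ones (0.533 and 0.511). H6PD, which supplies HSD11B1 with its cofactor, rose in both (log2 0.26 ± 0.09 and 0.43 ± 0.09, edgeR adjusted p = 0.0403 and 0.0125). In cardiac co-culture the H6PD call was lost without cardiac replicate 2 (0.0524), and in hepatic co-culture under 8 of 17 alternatives, among them the omission of monoculture replicate 1, 2 or 3, hepatic replicate 1 or 3, or cardiac replicate 1 or 3 (up to 0.139).

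Paralogs of the 10 genes were compared because a shared family name need not mean a shared response. Of 16 paralogs, 5 rose and 4 fell in hepatic co-culture, where 28.0% of all tested genes passed, 14.4% higher and 13.6% lower. MAOB, the second monoamine oxidase and neighbour of MAOA on the X chromosome, fell with it, from 2.41, 3.11, 3.39 and 4.03 to 1.59, 1.91, 1.44 and 0.880 CPM (log2 -1.14 ± 0.25, edgeR adjusted p = 0.00274). DUSP4, DUSP5 and DUSP6, which act mainly on ERK, rose while DUSP1 was lower (0.47 ± 0.08, 0.59 ± 0.07 and 0.60 ± 0.10; edgeR adjusted p = 4.62e-04, 1.17e-05 and 4.18e-04). TSC22D1, of the TSC22D3 family, rose by 0.54 ± 0.10 (5.69e-04) and FKBP8, an FKBP of the mitochondrial membrane, by 0.55 ± 0.10 (9.33e-04). CEBPB fell by 0.48 ± 0.14 (0.0210), a call lost without monoculture replicate 3 or 4 or hepatic replicate 2 or 4 (up to 0.0601). In cardiac co-culture TSC22D1, DUSP6 and FKBP8 rose and 0 fell, where 8.26% of all tested genes passed (4.93% higher). All 3 calls were lost without monoculture replicate 3 or 4 or cardiac replicate 1, 2 or 3. TSC22D1 alone was called without monoculture replicate 1 or hepatic replicate 3. Without cardiac replicate 4, 5 rose and 1 fell, where 19.1% of all tested genes passed. Between the co-cultures, where 6.18% of all tested genes passed, CEBPB was higher in the cardiac libraries (0.62 ± 0.14, edgeR adjusted p = 0.0189). DUSP5 was lower there (-0.42 ± 0.07, edgeR adjusted p = 7.10e-04). Among fits that left out 1 library, the CEBPB call was lost without hepatic replicate 2 or 4.

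The hepatocyte sum was nearly all SERPINA1, which the cancer cells expressed in monoculture too, and the other 9 hepatocyte markers were too low to be tested. Of 6 tested fibroblast markers 3 passed in hepatic co-culture against monoculture, where 28.0% of all tested genes passed, 14.4% higher and 13.6% lower. COL1A2 rose from 1.56 ± 0.591 to 4.55 ± 1.92 CPM and COL3A1 from 0.0891 ± 0.163 to 0.634 ± 0.283 CPM, while DCN fell from 2.48 ± 1.08 to 0.278 ± 0.118 CPM (edgeR adjusted p = 0.0121, 0.0257 and 3.96e-05). The part of RNA from partner tissue in the hepatic values was not tested. The part of the position of cardiac replicate 4, or of its 21 MYH6 counts, in the cardiac values was not tested.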

How the data were processed

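RNA of cancer tissue was measured in 12 libraries (4 per group, assigned from the sample titles, and table columns matched by library name). The authors deposited raw counts per Ensembl gene in 1 table. The submitters' processing notes name HISAT2 2.2.1, featureCounts 2.0.6, DESeq2 1.42.0 and the build GRCh38, without roles or settings. The labels' protocols describe a stranded and an unstranded kit without saying which was used, so antisense reads cannot be told apart. All 58735 identifiers were found in GENCODE release 29, the source of symbols, coordinates and exon lengths. The annotation used for counting is not given in the sources used here.

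Genes passing filterByExpr (17468, holding 99.9% of counts) were tested with edgeR 4.0.16 in R 4.3.3: TMM scaling, robust quasi-likelihood test, 1 fit of all 12 libraries by group, two-sided p-values adjusted by Benjamini and Hochberg's method over the tested genes, threshold 0.05. The common biological coefficient of variation was 14.9%. Totals were 35042363 to 42047064 counts in monoculture, 26227140 to 42430001 in hepatic and 26986277 to 37400378 in cardiac co-culture. Correlations used log CPM with a prior count of 2. The limit given for ZBTB16 covers counting error only, since reads carry no molecular identifiers.

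The 10 genes, the pathway lists, the naming rule and the tests were chosen with earlier results of these data known. Named were the 10 genes, 11 pathway genes whatever they did, up to 3 genes with the smallest adjusted p per list and comparison, and the 5 genes most and least correlated with FKBP5. Other called genes of the induced, repressed and paralog lists, and CARM1, were named after their values were seen. Some genes of the lists count in the totals but are not reported here by name. The fit was repeated without each library in turn, with a term for the replicate number, without the filter on low counts, with upper-quartile or DESeq2 scaling, and with DESeq2 1.42.0 itself.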

Additional observations from a re-analysis of the deposited data

Results flagged for a closer look

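Of 167 groups of 4 libraries looked at for the named genes, 8 held a library whose gap to the others exceeded Dixon's 95% critical value (0.829 of the range), where chance gives about 1 in 20. In cardiac replicate 4, HSPA4 (175 CPM, the others 139 to 143), PDK4 (69.4, the others 58.3 to 59.4) and TFCP2L1 (12.0, the others 8.91 to 9.25) lay above the rest of the group. PTGS2 was at 40.3 CPM in hepatic replicate 3, with 26.5 to 27.9 in the others. FKBP8 was at 326 CPM in monoculture replicate 2 (287 to 292 in the others) and at 544 CPM in hepatic replicate 1 (396 to 414). The remaining 2 were single libraries with a few reads where the others of the group had 0, PGR at 0.0685 CPM in hepatic replicate 3 and at 0.113 in cardiac replicate 2.

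In edgeR's direct test of cardiac against hepatic libraries (adjusted p under 0.05), 19 pathway genes named in the text passed. Of all tested genes 6.18% passed, 3.27% higher and 2.91% lower in cardiac. Many of the 19 were named for a small adjusted p or after their values were seen. Their number thus follows in part from the naming and is not a result. Among induced targets the log2 differences were 2.39 for ANGPTL4, 1.83 for MT1X, 1.67 for TFCP2L1, 1.64 for SCNN1A, 1.08 for PER1, 1.07 for MT2A, 1.05 for CRISPLD2, 1.05 for KLF15, 0.76 for RHOB, 0.69 for NFKBIA and 0.49 for CAVIN2, and at least 5.59 for ZBTB16, whose hepatic libraries had 0 counts. Among partners of the receptor they were 0.52 for NCOA3, 0.32 for CREBBP, 0.30 for PPP5C, 0.27 for MED1 and 0.22 for NCOR1. Among paralogs they were 0.62 for CEBPB and -0.42 for DUSP5. Of these 19 calls 8 were lost under at least 1 alternative. Without hepatic replicate 3 these were PPP5C, CREBBP, MED1, NCOR1, NFKBIA, KLF15 and CRISPLD2. Without hepatic replicate 2 they were CREBBP, MED1, NCOR1, NFKBIA, KLF15, CRISPLD2 and CEBPB, and without cardiac replicate 3 PPP5C, CREBBP, MED1, NCOR1, NFKBIA and KLF15. Hepatic replicates 1 and 4 and cardiac replicates 1, 2 and 4 each carried at least 1 of the 8, and the monoculture libraries carried NCOR1 and KLF15.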

How the results depend on the processing

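The log2 fold changes of the 10 genes moved by less than 1 SD of the replicates under all 17 alternatives, and for FKBP5 they ranged from -2.81 to -2.65 (hepatic against monoculture), -0.38 to -0.22 (cardiac against monoculture) and 2.34 to 2.52 (cardiac against hepatic) with 1 library left out. Counts over all genes depended more on the setting. In cardiac co-culture against monoculture 1443 genes were called, 2372 by DESeq2, 2219 with no low-count filter and 263 (without cardiac replicate 2) to 3378 (without cardiac replicate 4) with 1 library left out. The 6 induced genes called there became 0 to 11. In hepatic co-culture against monoculture 4892 genes were called (3660 to 5529 with 1 library left out) and 15 induced genes (12 to 19). Under the other alternatives these were 4660 to 5458 and 15 to 18. Between the co-cultures 1080 genes were called, 676 without hepatic replicate 3 and up to 1269 with another library left out, and 12 induced genes (9 to 15). Under the other alternatives 891 to 1609 genes and 11 to 16 induced genes were called there. Upper-quartile scaling raised the share of higher calls in cardiac co-culture against monoculture from 59.7% to 72.2%. The cause of these shifts was not tested.

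Libraries of different groups with the same replicate number did not deviate together: of 12 pairs 1 had a correlation of deviations over 0.1 (-0.08 to 0.11). The replicate numbers were therefore not taken as pairs. The library names carry other numbers, which would pair the cardiac libraries differently, and pairing by them was not examined. With a replicate block 4660, 1310 and 891 genes and 15, 6 and 11 induced genes were called in the 3 comparisons, and FKBP5 was at -2.71, -0.29 and 2.42. KLF9 was then called as higher in hepatic co-culture, and the calls of H6PD (hepatic against monoculture), TNFAIP3 (cardiac against monoculture) and CREBBP, NCOR1, KLF15 and CEBPB (cardiac against hepatic) were not made. Calls of the pathway genes named in the text, with CARM1 left out of the count, were followed over all alternatives. Kept under every alternative were 29 of 38 (hepatic against monoculture), 1 of 14 (cardiac against monoculture, ICAM1) and 11 of 19 (cardiac against hepatic). Depth limits ZBTB16, MMP13, NOS2, HSD11B1, HSD11B2, KLF15, COL3A1, DCN and ANKRD35, each near or under 1 CPM in a group. In hepatic co-culture KLF15 was at 1.00 CPM (19 to 40 counts) and ANKRD35 at 1.17 CPM (29 to 45 counts).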

Other observations

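In the 250 bases before the start sites of 30 other induced genes (41 RefSeq windows), the looser receptor element GNACANNNTGTNC, searched on both strands, occurred in 2 windows, both of FAM107A, a gene too low to be tested here, against 0.327% of all 35116 windows. The single arm AGAACA occurred in 2 windows, 1 of FAM107A and 1 of PDK4 (4.88%, against 12.4% of all). TATAAA was in 10 of the 41 windows (24.4%, against 10.7% of all), in 8 of the 30 genes: ANGPTL4, ANXA1, FSTL3, IL1R2, MT1X, MT2A, NFKBIA and SGK1. These are counts of letters in a short window, not sites.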
